A study of Mus musculus with 12 samples.

Results

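The genes described are 10 sensors, adaptors and regulators of cytosolic DNA and RNA sensing in mouse macrophages: Ddx58, Ifih1, Dhx58, Mavs, Tmem173, Tbk1, Zbp1, Trex1, Samhd1 and Adar. They were taken by name from a given list and found by gene symbol in a table of read counts for 47937 genes. All 10 were in the table, 9 of them were among the 11760 genes with enough reads to test, and Trex1 had 0 reads in all 12 libraries. Newer gene catalogues call Tmem173 Sting1 and Ddx58 Rigi.

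RNA was sequenced from bone marrow-derived macrophages of C57BL/6 mice, grown for 7 days with 20 ng/ml of the growth factor CSF-1, which all 4 groups shared. The groups held 3 libraries each. Resting macrophages (M0) received nothing further, and inflammatory macrophages received 50 ng/ml IFNγ and 20 ng/ml LPS for 18 h (IFNγ + LPS). The other two groups received 50 μM T863, an inhibitor of the triacylglycerol-forming enzyme DGAT1, for 18 h without stimulus (DGAT1i) or with both stimuli (DGAT1i + IFNγ + LPS). The labels give no time for M0, and the descriptions of 2 of the 3 resting DGAT1i libraries carry another compound number while their source names say T863. The labels do not say that the libraries came from separate mice, so p-values measure the spread between libraries, which may be technical. The comparisons ask how activation changed these genes and how the inhibitor changed them in resting and in inflammatory macrophages.

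A cell detects foreign or misplaced nucleic acid in its cytosol with receptors that bind it directly. The helicases RIG-I (Ddx58) and MDA5 (Ifih1) bind double-stranded RNA and act through the mitochondrial protein MAVS, while cGAS binds DNA and makes a cyclic dinucleotide that activates STING (Tmem173) on the endoplasmic reticulum. Both routes reach the kinase TBK1, which phosphorylates IRF3 and so turns on type I interferon. TREX1, SAMHD1 and ADAR1 act in the other direction, by degrading DNA, hydrolysing nucleotides and editing double-stranded RNA. Many of these genes are themselves induced by interferons, in macrophages through STAT and IRF factors that bind short promoter elements.

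Since interferons are known to induce many of these genes, the promoters were searched for the cores of such elements. RefSeq windows from 250 bases before to 50 after each annotated start (GRCm38.p6) matched 7 of the 10 genes, in 10 windows of 300 bases. The genes Tmem173, Dhx58 and Zbp1 had no entry in the promoter table. The letters GAAANNGAA, the core of the interferon-stimulated response element (ISRE), were found on either strand in 3 windows, those of Ddx58, Ifih1 and Adar, and in 8.56% of all 32851 windows. The letters TTCNNNGAA, a form of the interferon-gamma activated site (GAS), were found in 2 windows, those of Samhd1 and Adar, and in 8.3% of all windows. The stretches that hold these letters are given 5′ to 3′ on the strand of the gene, with the matched letters in capitals. They are descriptions of letters and not of bound sites, and a window without them says only that these letters are absent there.
Ddx58 (chr4:40239804-40239833, minus strand, at the start site): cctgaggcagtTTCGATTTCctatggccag
Ifih1 (chr2:62646309-62646417, minus strand, upstream): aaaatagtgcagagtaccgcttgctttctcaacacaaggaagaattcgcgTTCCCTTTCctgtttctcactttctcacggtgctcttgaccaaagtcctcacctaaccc
Ifih1 (chr2:62646206-62646235, minus strand, downstream of the start): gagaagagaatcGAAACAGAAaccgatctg
Samhd1 (chr2:157135273-157135346, minus strand, upstream): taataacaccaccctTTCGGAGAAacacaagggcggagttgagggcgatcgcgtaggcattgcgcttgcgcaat
Adar (chr3:89730468-89730527, plus strand, upstream): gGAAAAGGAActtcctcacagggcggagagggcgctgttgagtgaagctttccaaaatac
Adar (chr3:89730735-89730764, plus strand, downstream of the start): gccttTTCAAGGAAacGAAAGTGAActctg
In Ddx58 and in the upstream stretch of Ifih1 the ISRE letters lie on the opposite strand, so the reverse complement of the letters is what stands in capitals. Adar carried both kinds in 1 of its windows, where TTCAAGGAA and GAAAGTGAA lie 2 bases apart. That window (chr3:89730468-89730767) lies inside the gene, which runs from 89715022, so upstream there means before a later annotated start. The Adar windows near the beginning of the gene (chr3:89714772-89715071 and chr3:89714988-89715287) held neither kind.

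Libraries held 4996014 to 6621671 reads, with a median of 6099313.5. Levels are given as CPM (reads scaled to a common library size by TMM), where 1 CPM was 4.28 to 7.58 reads. CPM is not corrected for gene length, and levels of different sensing genes are compared per kilobase of annotated exon. With scaling by library size alone, the middle gene of the table went from a log2 fold change of 0.01 to -0.46 for activation without DGAT1i and from -0.01 to -0.43 under it, and the 4361 genes higher and 4254 lower on activation became 2340 and 7002. Under DGAT1i the split of 4152 higher and 4151 lower became 2333 and 6799. For DGAT1i in M0, 1298 higher and 1571 lower became 885 and 2092, and for the difference between the responses to DGAT1i 1019 and 1152 became 1229 and 882. All 8 macrophage markers examined were present, among them Mertk at 71.4 CPM and Lyz2 at 9641 CPM in M0, while the 5 erythroid markers had 0 reads. The libraries hold bulk RNA, in which fewer cells of a type and less RNA per cell cannot be told apart.

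Activation with IFNγ + LPS raised 8 of the 9 genes tested and lowered none. Zbp1 rose 88.7-fold, Samhd1 24.0-fold, Ifih1 14.5-fold, Ddx58 8.45-fold, Dhx58 6.32-fold, Adar 5.24-fold, Tmem173 2.60-fold and Tbk1 2.43-fold, each past an adjusted p of 0.05 (Benjamini-Hochberg over all genes tested, quasi-likelihood test of edgeR). Mavs was the exception. Of all 11760 genes tested, 73.3% passed, 37.1% higher and 36.2% lower, and the median log2 fold change was 2.66 over the 9 genes and 0.01 over all genes. The 3 stimulated libraries lay above the 3 resting ones for the same 8 genes, as for 38.2% of all genes. The rises held in every fit that left out 1 library and in each of the 7 other settings.

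In inflammatory macrophages DGAT1i lowered 5 of the 9 genes and raised none. The gene that fell most was Tmem173, by 2.29-fold, and smaller falls were measured for Ifih1, Zbp1, Ddx58 and Adar. Of all genes, 29.8% passed the same test, 13.5% higher and 16.3% lower. The median log2 fold change was -0.17 over the 9 genes and -0.01 over all genes. The groups did not overlap for 7 of the 9 genes, 1 higher and 6 lower, against 39.7% of all genes, 18.1% higher and 21.6% lower. In resting macrophages DGAT1i lowered 2 genes, Tmem173 and Adar, and raised Ifih1 and Mavs, where 24.4% of all genes passed, 11.0% higher and 13.4% lower. There the groups did not overlap for 4 of the 9 genes, against 37.8% of all genes. The resting calls for Adar and Ifih1 were lost with DESeq2 (adjusted p = 0.0586 and 0.125), which left 2 genes changed.

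**Figure D1:**
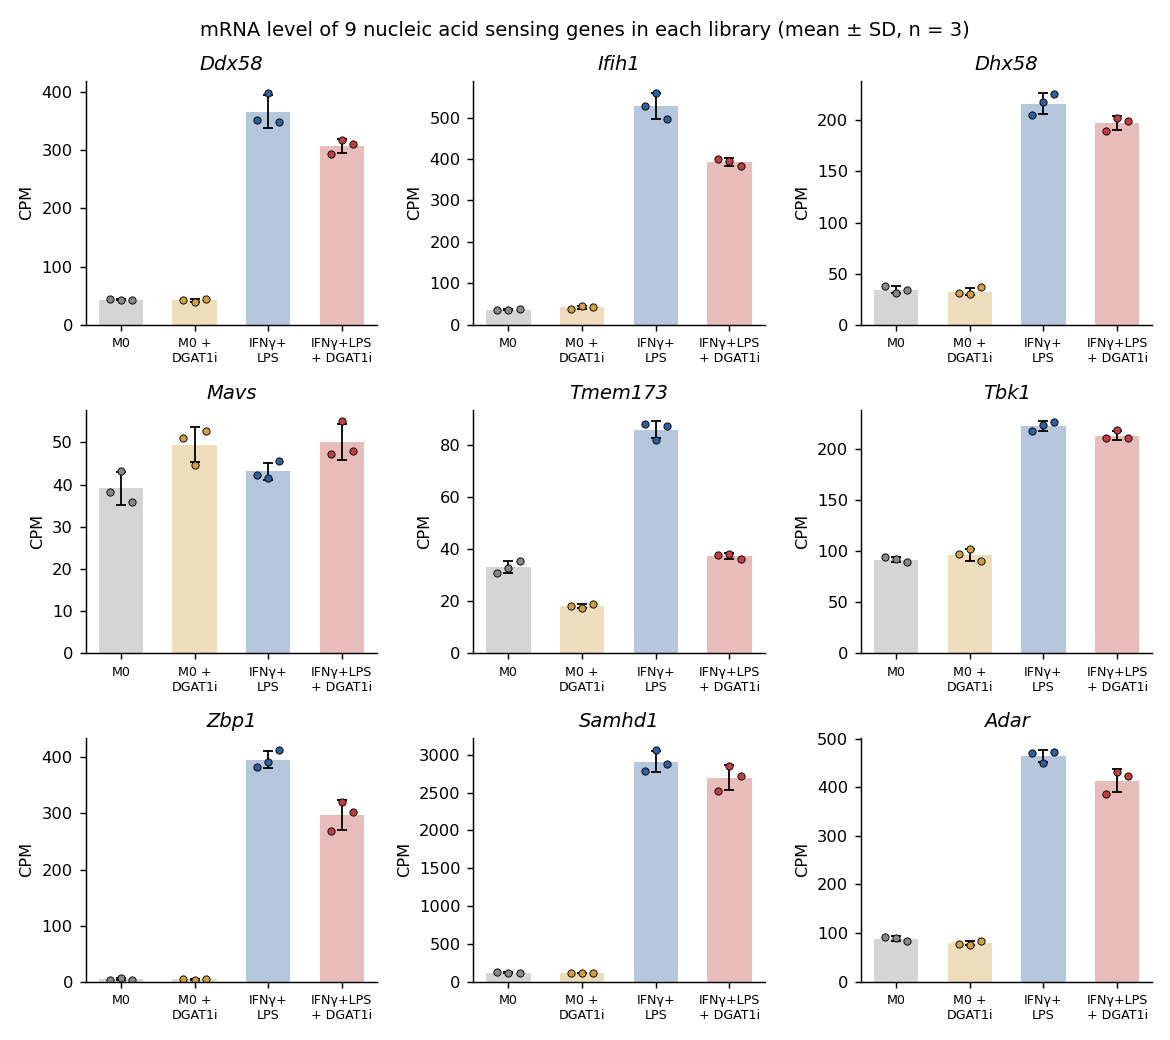
CPM of each of the 9 tested genes in the 12 libraries (points), with the mean (bar) and SD (whisker) of 3 libraries per group, on a separate linear axis for each gene. Mean Tmem173 in DGAT1i + IFNγ + LPS (37.4 CPM) lies nearer to M0 (33.0 CPM) than to IFNγ + LPS (85.9 CPM), while the stimulated Samhd1 libraries lie between 2524 and 3070 CPM with or without the inhibitor.

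Among the RNA receptors, Ddx58 (chr4:40203773-40239828, minus strand, GRCm38) encodes RIG-I, which binds RNA with a 5′ triphosphate end. Its level was 44.7, 42.2 and 43.2 CPM in the M0 libraries and 352.0, 398.9 and 347.7 CPM with IFNγ + LPS. With DGAT1i it was 42.6, 39.5 and 43.7 CPM at rest and 292.9, 317.5 and 310.8 CPM after stimulation. The resting groups overlapped, and every stimulated library with DGAT1i lay below every one without it. Its log2 fold change by DGAT1i was -0.26 ± 0.05 (SE) in inflammatory macrophages (adjusted p = 1.93e-04, quasi-likelihood test of edgeR). In M0 it was -0.05 ± 0.08, with a 95% interval of -0.20 to 0.11 (adjusted p = 0.719), and the difference between these responses was -0.21 ± 0.09 (adjusted p = 0.117).

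Ifih1 (chr2:62595798-62646255, minus strand) encodes MDA5, the receptor for long double-stranded RNA. It measured 35.7, 36.0 and 37.2 CPM in M0 and 38.5, 46.0 and 41.8 CPM in DGAT1i, and the 2 resting groups did not overlap. After stimulation it measured 527.6, 560.0 and 496.0 CPM without the inhibitor and 401.0, 394.9 and 382.0 CPM with it. Ifih1 was thus lower with DGAT1i in all 3 inflammatory libraries and higher in all 3 resting ones. The log2 fold change was -0.43 ± 0.05 in inflammatory macrophages, a 1.34-fold fall (adjusted p = 3.29e-09), and 0.21 ± 0.08 in M0 (adjusted p = 0.0369, edgeR as above). The interaction between DGAT1i and IFNγ + LPS was -0.64 ± 0.09 on the log2 scale (adjusted p = 5.83e-07). Ifih1 was the only one of the 9 genes for which this interaction passed, where 18.5% of all genes did, 8.66% higher and 9.80% lower, and it passed in all 12 fits that left out 1 library. The rise in M0 was lost without any 1 of M0 replicates 1, 2 and 3 or DGAT1i replicates 2 and 3, with adjusted p between 0.0675 and 0.255, and it was also lost with RLE factors (0.0619), library-size scaling (0.135), no filter on low counts (0.0734) and DESeq2 (0.125).

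Dhx58 (chr11:100694884-100704271, minus strand) encodes LGP2, a helicase without signalling domains that tunes the other pair. It measured 37.6, 31.3 and 34.1 CPM in M0 and 31.5, 29.7 and 36.6 CPM in DGAT1i, which overlapped. It measured 205.1, 218.4 and 226.1 CPM with IFNγ + LPS and 189.8, 202.8 and 199.6 CPM with DGAT1i added. These stimulated groups did not overlap, but the gap between them was smaller than the distance between neighbouring libraries within either group. With DGAT1i the log2 change in inflammatory macrophages was -0.13 ± 0.06, which did not pass (adjusted p = 0.0867, edgeR), and its 95% interval ran from -0.26 to -0.01. Per kilobase of exon, the levels with IFNγ + LPS and no inhibitor were 51.9 CPM for Ddx58, 64.7 CPM for Ifih1 and 66.2 CPM for Dhx58.

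Mavs (chr2:131234063-131248025, plus strand), the mitochondrial adaptor of these receptors, had the smallest log2 fold change on activation. Its level was 38.2, 43.3 and 35.8 CPM in M0 and 42.3, 41.6 and 45.5 CPM with IFNγ + LPS, and these groups overlapped. With DGAT1i it was 51.1, 44.7 and 52.7 CPM at rest and 47.3, 55.1 and 48.1 CPM after stimulation. Both inhibitor groups lay above their controls without overlap. Its log2 fold change by DGAT1i was 0.34 ± 0.08 in M0 (adjusted p = 0.00141, edgeR), past the threshold in every fit that left out 1 library. In inflammatory macrophages it was 0.22 ± 0.09, with a 95% interval of 0.03 to 0.41 (adjusted p = 0.0700), and it passed without M0 replicate 2 (adjusted p = 0.0412) or 3 (adjusted p = 0.0427). By activation it was 0.14 ± 0.09, with an interval of -0.04 to 0.32 (adjusted p = 0.159). Scaled by library size alone, the activation value was -0.33 (adjusted p = 0.00113), where the median over all genes was -0.46.

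Tmem173 (chr18:35733679-35740554, minus strand) encodes STING, the adaptor for cyclic dinucleotides. Its level was 30.8, 32.8 and 35.5 CPM in M0 and 88.2, 82.1 and 87.3 CPM with IFNγ + LPS. With DGAT1i it was 18.1, 17.5 and 19.0 CPM at rest and 37.9, 38.2 and 36.2 CPM after stimulation. The 4 groups did not overlap, and stimulated libraries with the inhibitor stood only just above resting ones without it. With DGAT1i the log2 change was -1.20 ± 0.08 in inflammatory macrophages (adjusted p = 2.44e-17, edgeR) and -0.86 ± 0.10 in M0, a 1.82-fold fall (adjusted p = 1.44e-10). Both falls passed in all 12 fits that left out 1 library and in all 7 other settings. The difference between them was -0.34 ± 0.13, with a 95% interval of -0.60 to -0.08, and did not pass (adjusted p = 0.0624). Activation still raised Tmem173 under DGAT1i, by 2.06-fold, and the mean gain was 19.2 CPM against 52.9 CPM without the inhibitor.

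**Figure D2:**
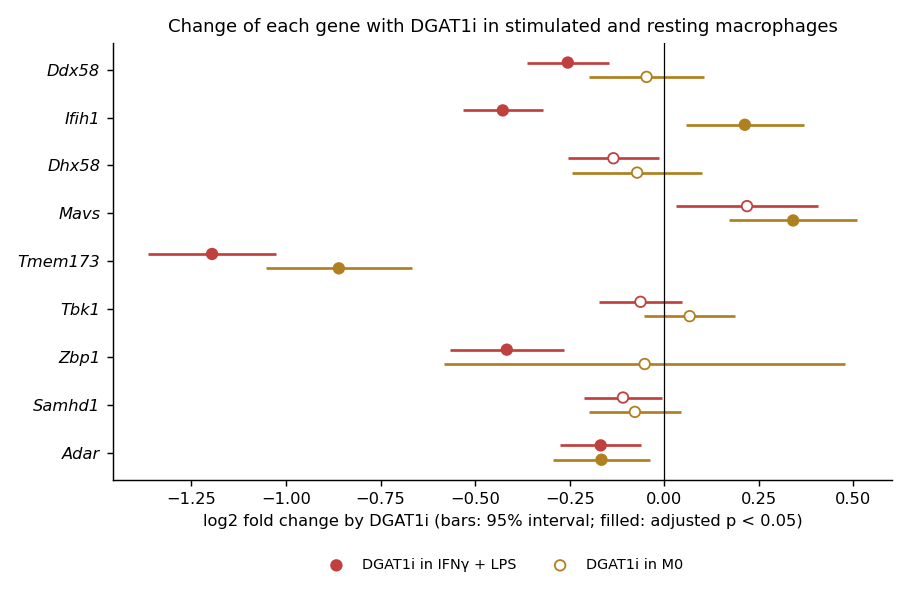
Log2 fold change by DGAT1i of each of the 9 genes in IFNγ + LPS macrophages (red) and in M0 (brown), with 95% intervals and filled points where the adjusted p was under 0.05. Tmem173 lies at -1.20 and -0.86, and Ifih1 lies on opposite sides of 0, at -0.43 and 0.21.

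Tbk1 (chr10:121546455-121586787, minus strand) encodes the kinase on which the adaptors converge. It measured 93.7, 92.6 and 88.8 CPM in M0 and 96.7, 101.5 and 90.1 CPM in DGAT1i. After stimulation it measured 217.3, 223.8 and 226.3 CPM, and 210.4, 218.0 and 210.6 CPM with DGAT1i. Groups with and without the inhibitor overlapped both at rest and after stimulation. Its log2 fold change by DGAT1i was -0.06 ± 0.06 in inflammatory macrophages, with a 95% interval of -0.17 to 0.05 (adjusted p = 0.426, edgeR), and 0.07 ± 0.06 in M0, with an interval of -0.05 to 0.19 (adjusted p = 0.464).

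Zbp1 (chr2:173206612-173218923, minus strand) encodes a receptor for Z-form nucleic acid that recruits RIPK3 and can start necroptosis. In M0 it was scarce, at 2.76, 6.66 and 3.76 CPM, which were 19, 50 and 27 reads. It measured 3.99, 3.97 and 4.88 CPM in DGAT1i, 382.8, 391.7 and 413.8 CPM with IFNγ + LPS, and 268.0, 320.2 and 302.6 CPM with both. The resting groups overlapped, and the stimulated ones did not. With DGAT1i the log2 change in inflammatory macrophages was -0.42 ± 0.07 (adjusted p = 9.67e-05, edgeR). In M0 it was -0.05 ± 0.26, and the 95% interval of -0.58 to 0.48 includes falls and rises of the size measured after stimulation. The difference between these responses was -0.36 ± 0.27 (adjusted p = 0.388), and -0.77 (adjusted p = 0.0231) without M0 replicate 2, which held the 50 reads.

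Trex1 (chr9:109057933-109059734, minus strand), which encodes the main cytosolic DNA exonuclease, was listed at 0 reads in every library. Its exons span 1147 bases, and 100.0% of these bases also belong to exons of Atrip on the same strand in the GENCODE M21 annotation. Atrip, a partner of the DNA damage kinase ATR, had 3 to 20 reads per library and 104 in all. How the counting treated reads that fall in both genes is not given in the sources used here, so the level of Trex1 could not be read from these counts and no fold change is given.

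**Figure D3:**
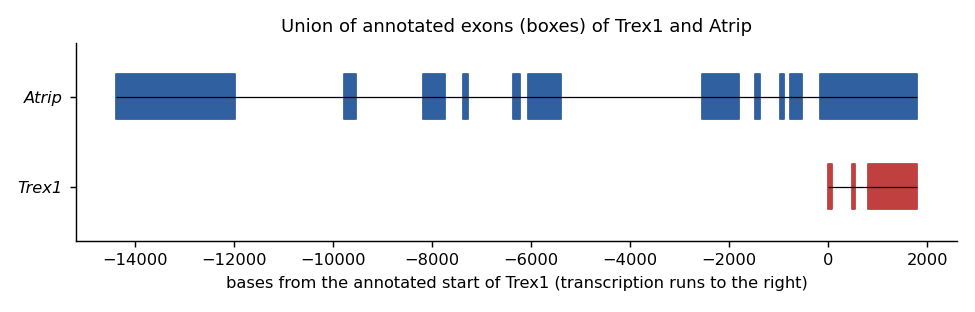
Annotated exons (boxes) of Trex1 and Atrip, drawn to scale in bases from the annotated start of Trex1 with transcription to the right. All 1147 exon bases of Trex1 lie inside exons of Atrip.

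Samhd1 (chr2:157097533-157135265, minus strand) encodes a dNTP hydrolase that limits DNA synthesis by retroviruses. It measured 122.5, 121.1 and 120.4 CPM in M0 and 2786, 3070 and 2878 CPM with IFNγ + LPS. With DGAT1i it measured 117.0, 117.8 and 110.1 CPM at rest and 2524, 2853 and 2721 CPM after stimulation. The resting groups did not overlap and the stimulated ones did. Its log2 fold change by DGAT1i was -0.11 ± 0.05 in inflammatory macrophages, with a 95% interval of -0.21 to -0.01 (adjusted p = 0.107, edgeR), and -0.08 ± 0.06 in M0 (adjusted p = 0.389). The stimulated fall passed without DGAT1i + IFNγ + LPS replicate 2 (adjusted p = 0.0481). Per kilobase of exon it stood highest of the 9 genes after stimulation, at 318 CPM, followed by Zbp1 at 112 CPM, while Mavs stood lowest at 12.9 CPM.

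Adar (chr3:89715022-89753446, plus strand) encodes ADAR1, which converts adenosine to inosine in double-stranded RNA. It measured 92.8, 90.0 and 83.0 CPM in M0 and 77.3, 76.0 and 83.5 CPM in DGAT1i, and these groups overlapped. It measured 470.6, 449.7 and 473.4 CPM with IFNγ + LPS and 386.6, 431.6 and 422.1 CPM with DGAT1i added, without overlap. With DGAT1i the log2 change was -0.17 ± 0.05 in inflammatory macrophages (adjusted p = 0.0121, edgeR) and -0.17 ± 0.06 in M0 (adjusted p = 0.0483). The first was lost without IFNγ + LPS replicate 3 (adjusted p = 0.0513) or DGAT1i + IFNγ + LPS replicate 1 (adjusted p = 0.0996). The second was lost in 7 of the 12 fits that left out 1 library, without M0 replicates 1 or 2, IFNγ + LPS replicates 1 or 3, DGAT1i replicates 1 or 2 or DGAT1i + IFNγ + LPS replicate 3, with adjusted p between 0.0508 and 0.185, and also with no filter on low counts (0.106), with DESeq2 (0.0586) and with only the 6 libraries compared (0.0531). Exons of Adar share 1365 of 8118 bases with Chrnb2 on the opposite strand, a neuronal receptor gene with 4 to 30 reads per library, and whether strand was used in counting is not given in the sources used here.

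By mean level, both stimulated groups stood above both resting groups for every tested gene but Mavs. Within the stimulated pair, IFNγ + LPS stood above DGAT1i + IFNγ + LPS for each of these 8 genes, past the threshold for Tmem173, Ddx58, Ifih1, Zbp1 and Adar and not for Dhx58, Tbk1 and Samhd1. Within the resting pair, DGAT1i stood below M0 for Tmem173, Ddx58, Dhx58, Zbp1, Samhd1 and Adar, past the threshold for Tmem173 and Adar, and above it for Ifih1, Tbk1 and Mavs, past the threshold for Ifih1 and Mavs. For Tmem173, the step from M0 at 33.0 ± 2.36 CPM to DGAT1i + IFNγ + LPS at 37.4 ± 1.07 CPM (SD, n = 3) was not a contrast of the design and was not tested.

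Under DGAT1i, activation raised the same 8 genes, and Mavs again did not pass (log2 fold change 0.02, 95% interval -0.16 to 0.19). Scaled by library size alone, Mavs passed as a fall here too, at -0.40 (adjusted p = 5.61e-05), where the median over all genes was -0.43. Of all genes, 70.6% passed this comparison, 35.3% in each direction. The rise was 9.33-fold for Ifih1, 7.31-fold for Ddx58, 68.9-fold for Zbp1 and 23.5-fold for Samhd1. The groups did not overlap for the 8 genes, as for 36.1% of all genes on the higher side. The median log2 fold change over the 9 genes was 2.60, and these values use other libraries than the 2.66 measured without the inhibitor. For Adar the log2 fold change was 2.39 both with and without DGAT1i.

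**Figure D4:**
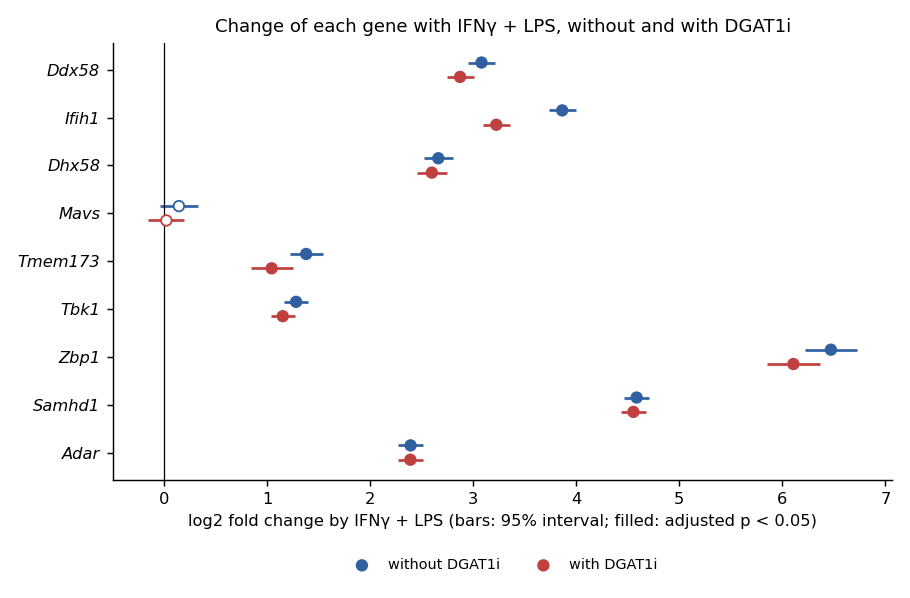
Log2 fold change by IFNγ + LPS of each of the 9 genes without DGAT1i (blue) and with it (red), with 95% intervals and filled points where the adjusted p was under 0.05. Ifih1 moves from 3.86 to 3.22, while Adar lies at 2.39 in both and Mavs near 0 in both.

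Markers of other cells were measured beside these changes, as sums of CPM that count reads and are not corrected for gene length. The summed level of 8 neutrophil and granulocyte precursor markers was 15.2 to 25.5 CPM with IFNγ + LPS and 63.0 to 81.0 CPM with DGAT1i added, against 31.6 to 38.7 CPM in M0 and 22.9 to 29.0 CPM in DGAT1i. The 4 of them that could be tested, Ngp, Ltf, S100a8 and S100a9, were all higher with DGAT1i in inflammatory macrophages, S100a8 at 34.5 against 9.13 CPM, while Ly6g had 0 reads in all libraries. The summed macrophage markers ran from 8324 to 8981 CPM with IFNγ + LPS and from 7923 to 8891 CPM with DGAT1i added, and from 13130 to 14360 CPM in M0 and 16050 to 18080 CPM in DGAT1i. Lyz2 alone made up 9641 of 13750 CPM on average in M0 and 13045 of 17197 CPM in DGAT1i. Of the 8 macrophage markers, DGAT1i in inflammatory macrophages lowered Itgam (log2 fold change -0.60), Adgre1 (-0.36) and Fcgr1 (-0.27) and raised Cd68 (0.48). The summed T and NK cell markers reached at most 0.666 CPM in a library, those of B cells 2.66 CPM, those of mast cells and basophils 0.835 CPM and those of stromal and endothelial cells 6.74 CPM. Dendritic cell markers summed to 751.6 to 817.3 CPM in stimulated libraries, where Bst2, which interferon also induces, made up 794 of 801 CPM on average without DGAT1i. Xcr1, the other dendritic marker that could be tested, had 1 read over the 3 M0 libraries, 0 in DGAT1i, 86 with IFNγ + LPS (5.53 CPM) and 12 with DGAT1i added (0.87 CPM), and the fall with DGAT1i passed (log2 fold change -2.65, adjusted p = 4.93e-07). The part of these markers in the falls of the sensing genes was not tested.

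Genes that act with the RNA receptors were described from a list of 18, of which 17 could be tested. The counts for this list and for those that follow stand beside 37.1% of all genes higher and 36.2% lower on activation, 13.5% higher and 16.3% lower with DGAT1i in inflammatory macrophages, and 11.0% higher and 13.4% lower with DGAT1i in M0. Activation raised 9 and lowered 4, with a median log2 fold change of 0.72. Irf7, the interferon-inducible transcription factor of this pathway, rose by 6.88 on the log2 scale to 2058 CPM, and Ddx60, a helicase cofactor, rose by 4.17. Irf3, the factor that TBK1 phosphorylates, was 42.9 ± 1.39 CPM in M0 and 40.5 ± 3.72 CPM with IFNγ + LPS and did not pass any of the 5 comparisons. DGAT1i in inflammatory macrophages lowered 4 of the 17 and raised 1, a share near the 29.8% of all genes, with a median of 0.00. Those lowered were the RIG-I ubiquitin ligase Rnf135 (-0.25), the deubiquitinase Cyld (-0.39), Irf7 (-0.21) and Ddx60 (-0.36), and the one raised was the ligase Traf6 (0.41). The call for Rnf135 was lost with DESeq2 (adjusted p = 0.0562, against 0.0148 with edgeR). In M0 it lowered 2 and raised 1, with a median of 0.03.

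Of 25 partners of DNA sensing, all tested, activation raised 7 and lowered 10, with a median of -0.07. Aim2, the DNA receptor of an inflammasome, rose by 1.48 on the log2 scale, while Enpp1, which degrades the cyclic dinucleotide that cGAS makes, fell by 3.57. The gene for cGAS, named Mb21d1 in these files, was 19.6 ± 1.20 CPM in M0, 18.5 ± 1.40 CPM with IFNγ + LPS, 12.8 ± 2.23 CPM in DGAT1i and 18.9 ± 2.83 CPM with both. DGAT1i lowered it in M0 (log2 fold change -0.62, adjusted p = 1.39e-04, edgeR) and the value in inflammatory macrophages was 0.03 (adjusted p = 0.914). The interaction was 0.64 ± 0.19 (adjusted p = 0.0105), opposite in sign to that of Ifih1. DGAT1i lowered 6 of the 25 and raised 2 in inflammatory macrophages, with a median of -0.03, and lowered 5 and raised 2 in M0, with a median of 0.03.

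Of 10 partners of TBK1, activation raised 9 and lowered 1, with a median of 1.51. Ikbke, the inducible kinase related to TBK1, measured 87.1 ± 3.12 CPM in M0, 393 ± 2.31 CPM with IFNγ + LPS, 57.3 ± 1.70 CPM in DGAT1i and 169 ± 8.17 CPM with both (SD, n = 3). DGAT1i lowered Ikbke by 1.22 on the log2 scale in inflammatory macrophages (adjusted p = 1.21e-25) and by 0.60 in M0 (adjusted p = 1.88e-11, edgeR). Tank, a scaffold that binds both kinases, fell by 0.59 in inflammatory macrophages (adjusted p = 2.37e-11) and stood at 0.14 in M0 (adjusted p = 0.196). In all, DGAT1i lowered 2 and raised 2 of the 10 in inflammatory macrophages, with a median of -0.06, and lowered 1 and raised 2 in M0, with a median of 0.15. Tbk1 itself did not pass either comparison.

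Of 18 genes that remove or edit nucleic acids, activation raised 8 and lowered 7, with a median of 0.06. Dnase1l3, a secreted DNase, had 0 reads in all unstimulated libraries and 53.3 ± 4.92 CPM with IFNγ + LPS. DGAT1i lowered 7 and raised 4 in inflammatory macrophages, with a median of -0.17, among them Rnaseh2b, a subunit of the enzyme that removes RNA from RNA-DNA hybrids (-0.85), and Pld4, a lysosomal exonuclease (-0.66). In M0 it lowered 3 and raised 1, with a median of -0.10, and Rnaseh2b was again lower (-0.58).

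Of 9 effectors of double-stranded RNA, activation raised all 9, with a median of 2.85. Eif2ak2, which encodes the kinase PKR that halts translation on binding double-stranded RNA, rose by 1.77 on the log2 scale, from 76.1 ± 6.73 to 260 ± 5.78 CPM (SD, n = 3). With DGAT1i it measured 65.6 ± 4.26 CPM at rest, a log2 fold change of -0.21 (adjusted p = 0.0123, edgeR), and 238 ± 3.77 CPM after stimulation, a log2 fold change of -0.12 (adjusted p = 0.0939). DGAT1i raised 1 and lowered 2 of the 9 in inflammatory macrophages, with a median of -0.12, and lowered 2 in M0, with a median of -0.18.

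Of 8 partners of ZBP1 and RIPK kinases, activation raised 6 and lowered none, with a median of 0.87. Mlkl, the pore-forming executor of necroptosis, rose by 3.81 on the log2 scale. DGAT1i in inflammatory macrophages lowered 4 of the 8, with a median of -0.20, namely Mlkl (-0.26), Casp8 (-0.15) and the survival genes Cflar (-0.27) and Tnfaip3 (-0.35). The call for Casp8 was close to the threshold (adjusted p = 0.0467, edgeR) and was lost with DESeq2 (0.0904). In M0 it raised Cflar (0.41) and Tnfaip3 (0.51) and lowered Ripk3 (-0.66), with a median of -0.07 over the list.

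Type I and III interferon genes were near or at 0 reads. Of 8 examined, none could be tested, and Ifnb1 had 19 reads over the 3 IFNγ + LPS libraries, 4 over the 3 DGAT1i + IFNγ + LPS libraries and 0 in all resting ones. Of 14 type I interferon-stimulated genes used as a reference, activation raised all 14, with a median log2 fold change of 7.44. DGAT1i lowered 10 and raised 1 in inflammatory macrophages, with a median of -0.50. Usp18, which restrains interferon receptor signalling, fell there from 698 ± 37.1 to 431 ± 13.7 CPM. In M0 DGAT1i lowered 3 and raised none, with a median of -0.09. Over the 7 lists, further calls lost with DESeq2 were those of Stim1, Polr3b, Calcoco1, Rnaset2a and Cmpk2 for DGAT1i in inflammatory macrophages (adjusted p from 0.0519 to 0.129), of Tomm70a, Surf4 and Tbkbp1 for DGAT1i in M0 (0.0746 to 0.149) and of Dhx36 (0.0552) and Adarb1 (0.0832) for activation.

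**Figure D5:**
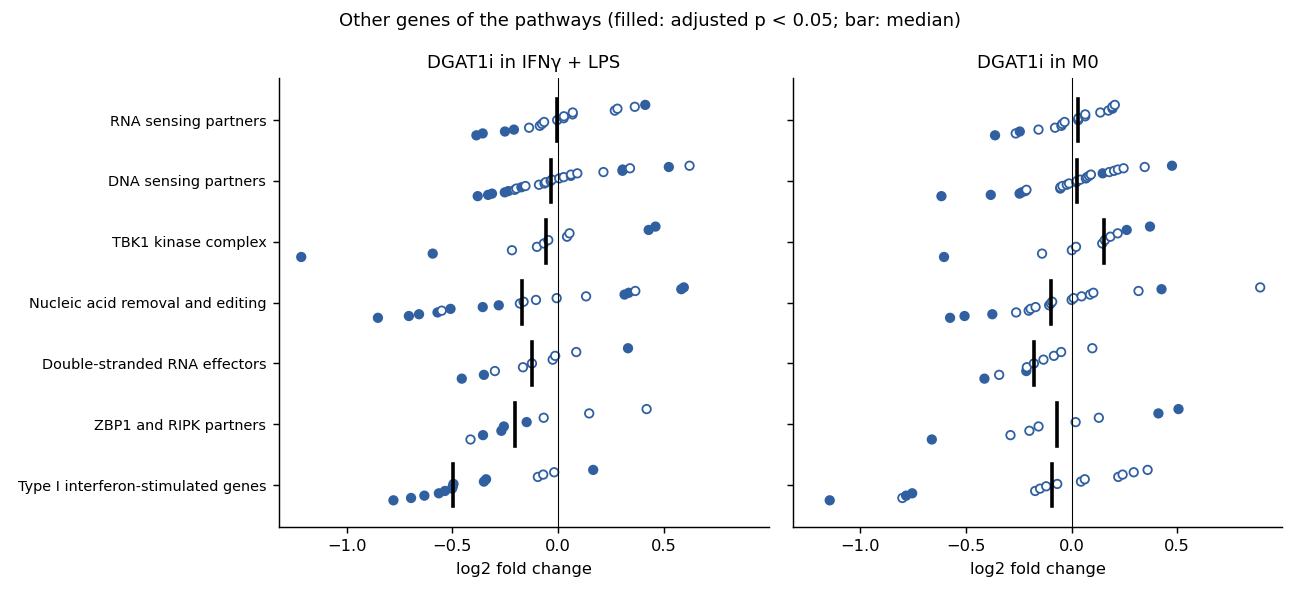
Log2 fold change by DGAT1i of each tested gene of the 7 lists in IFNγ + LPS macrophages (left) and in M0 (right), filled where the adjusted p was under 0.05, with the list median as a vertical bar. The interferon-stimulated genes have a median of -0.50 on the left and -0.09 on the right, and Ikbke lies farthest to the left among the TBK1 partners.

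By the mean log2 CPM of the 4 groups, centred for each gene, 3 genes with the most similar pattern were found for each gene among 8441 candidates. They describe 4 points only. For Tmem173 they were Psat1, Pou2f2 and Kctd12, with root mean square differences of 0.0484, 0.153 and 0.157 on the log2 scale. For Ifih1 they were Slc31a2 (0.0782), Lmo4 (0.0948) and Tap2 (0.0971), for Ddx58 Psmb8 (0.0515) came first, for Dhx58 Ifi35 (0.0273), for Zbp1 Batf2 (0.0833), for Samhd1 Herc6 (0.0806) and for Adar Il4ra (0.0193). Nup62 (0.0122) came first for Mavs and Ebi3 (0.012) for Tbk1.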

How the data were processed

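The authors deposited a table of raw read counts per Ensembl gene for 12 libraries. GRCm38 and DESeq2 are listed in the submitters' processing notes, the study's methods cite the snakePipes pipeline, and the aligner, counter and annotation it ran were not given in the sources used here. The labels name a low-input kit and the study's methods a stranded one, so the strandedness of the counts is not known. Symbols were assigned by gene ID, and 713 of 47937 IDs had none. Counts were filtered (filterByExpr, 11760 genes), scaled by TMM and fitted with edgeR 4.0.16 (R 4.3.3) by the quasi-likelihood test, with 1 mean per group over all 12 libraries, Benjamini-Hochberg adjustment over all genes and a threshold of 0.05. The 5 comparisons were IFNγ + LPS against M0 without and with DGAT1i, DGAT1i in each state, and the difference between the DGAT1i responses. The comparisons share control groups. Depth was 4996014 to 6621671 reads per library and the common biological coefficient of variation was 0.0507. Replicates of a group differed by more than sampling noise, with a mean chi-square of 1.93 to 4.06 per gene between pairs. Alternatives were RLE or library-size scaling, other filters, DESeq2 1.42.0, only the 6 libraries compared, a replicate block and leaving out each library. Positions and exon lengths came from GENCODE M21 (GRCm38), and promoters came from RefSeq (GRCm38.p6). Shared sequence was checked with BLAST 2.17.0 for the 10 sensing genes only. Named genes were every member of the list, genes of the fixed partner and marker lists by their counts, with values for those described, and for each member the 3 genes with the smallest root mean square difference among genes with a mean of at least 10 CPM. The members and lists were chosen with earlier results of these data known. 1 gene of a partner list is not reported here.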

Additional observations from a re-analysis of the deposited data

Results flagged for a closer look

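For 30 of the 126 sensing genes, partners and markers tested (23.8%, beside 18.5% of all genes), the response to DGAT1i in inflammatory macrophages differed from that in M0 by edgeR's interaction test over all genes, and the value is the log2 response with IFNγ + LPS minus that in M0. Among the sensing genes this was Ifih1 (-0.64). Among partners of RNA sensing the values were -0.42 for Rnf135, -0.34 for Cyld, -0.33 for Tomm70a, -0.42 for Ddx60 and 0.31 for Trim25. Among partners of DNA sensing they were -0.33 for Ddx41, -0.41 for Polr3a and 0.64 for Mb21d1, and among partners of TBK1 -0.61 for Ikbke, -0.74 for Tank and -0.32 for Sqstm1. Among genes of nucleic acid removal and double-stranded RNA effectors they were 0.70 for Rnaseh2c, 0.50 for Dnase1l1, -0.56 for Pld4 and -0.27 for Oas3. Among ZBP1 partners they were 0.81 for Ripk3, -0.68 for Cflar and -0.86 for Tnfaip3, and among interferon-stimulated genes -0.92 for Ifit3 and -0.36 for Irf9. Macrophage markers gave -0.68 for Itgam, -0.36 for Lyz2, -0.48 for Mertk, -0.43 for Fcgr1 and 0.89 for Cd14, and granulocyte markers 3.10 for Ngp, 2.50 for Ltf, 2.38 for S100a8 and 2.20 for S100a9. With DESeq2 the differences for Rnf135 (adjusted p = 0.0992), Ddx41 (0.138), Polr3a (0.0616) and Oas3 (0.0991) did not pass.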

How the results depend on the processing

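Of 846 values for single sensing genes under other settings, 796 kept their direction and their side of the threshold. With the direction kept, 21 fell short of the threshold and 6 newly passed it. The remaining 23 changed sign, and among these Mavs with library-size scaling also newly passed, on activation and under DGAT1i. The calls for activation of the 8 raised genes and for Tmem173 were among those kept. The count of sensing genes changed by DGAT1i in M0, 4 as reported, was 2 with no filter on low counts and 2 with DESeq2, and 2 to 4 when 1 library was left out (2 without M0 replicate 1, M0 replicate 2 or DGAT1i replicate 2). In inflammatory macrophages it ran from 4 to 6 when 1 library was left out and was 7 with no filter, and the count for the difference between the responses ran from 1 to 2 when 1 library was left out (2 without M0 replicate 2). With no filter, Dhx58 (-0.17, adjusted p = 0.0385) and Samhd1 (-0.15, adjusted p = 0.0445) were the further ones that passed. Scaled by library size only, Mavs on activation was -0.33, and -0.40 under DGAT1i, and the differences between responses were 0.0181 for Samhd1 and 0.0461 for Adar. The difference for Adar was 0.0145 with RLE factors and 0.0145 with DESeq2, and Mavs under DGAT1i was -0.0340 with no filter. Leaving out 1 library gave differences between responses of -0.0347 to 0.0798 for Adar, -0.0733 to 0.0148 for Samhd1 and -0.124 to 0.0383 for Dhx58, log2 fold changes of -0.30 to 0.37 for Zbp1 with DGAT1i in M0 and of -0.0552 to 0.0654 for Mavs on activation under DGAT1i. Why these values moved was not tested. Replicate numbers showed no clear pairing of the libraries. Correlations ran from -0.02 to 0.07 in 18 same-number pairs and from -0.06 to 0.04 in 36 other pairs, with none over 0.1. Such values cannot exclude a weak pairing. With a replicate block the numbers of sensing genes changed stayed at 8 for activation and 8 under DGAT1i. They also stayed at 5 and 4 for DGAT1i with and without stimulus, and at 1 for the difference. Zbp1 had 96 reads over the 3 M0 libraries, and the interferon genes had too few reads to test.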

Other observations

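The genes for the subunits of RNA polymerase III, which can copy cytosolic AT-rich DNA into RNA for RIG-I, did not move together. On activation Polr3c (log2 fold change 0.84) and Polr3a (0.51) rose, while Polr3g (-1.67), Polr3k (-0.69) and Polr3b (-0.52) fell, and Polr3d, Polr3e and Polr3f did not pass. Polr3b was lower with DGAT1i both in inflammatory macrophages (-0.33) and in M0 (-0.38), but the first call (adjusted p = 0.0474, edgeR) was lost with DESeq2 (0.103). Of 8 genes of the antiviral Oas family, activation raised all 8, beside 37.1% of all genes. Among them Oas3 rose by 4.29 and Oasl1 by 9.07 on the log2 scale. DGAT1i in inflammatory macrophages lowered Oas1a (-0.46) and Oas3 (-0.35) and raised Oasl1 (0.33), and the other 5 did not pass. Of all genes, 16.3% were lower and 13.5% higher there. Oas1a has close copies among which counting could divide reads, so its value and those of Oas1b, Oas1c and Oas1g are uncertain. Copies of partner genes were not searched for.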
